A study of Mus musculus with 6 samples.

Results

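The E proteins Tcf3, Tcf4 and Tcf12 and the Id inhibitors Id1, Id2, Id3 and Id4 are 7 of the 55401 genes listed in the deposited data, taken by gene name, and each name matched 1 entry. RNA came from bone marrow of 6 secondary recipients of a mouse leukaemia driven by Hoxa9 and Meis1, with 1 library per mouse. The 3 Lym mice (62, 63 and 87) had been given lymphoid leukaemic stem cells, and lymphoid cells were taken from them. The 3 Lin- mice (56, 57 and 91) had been given lineage-negative leukaemic stem cells, and Lin-, Kit-positive progenitors were taken from them. Values of single libraries stand in this order of mice throughout. All 6 mice carry the same driver genes, so no leukaemia-free group is among them. Strain, age, donor leukaemia and remaining host cells are not given in the sources used here.

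E proteins are basic helix-loop-helix transcription factors that bind the DNA element called the E box, paired with each other or with tissue-restricted partners, and they drive B, T and plasmacytoid dendritic cell development. Id proteins have the helix-loop-helix but lack the basic region that touches DNA, so an E protein paired with an Id protein cannot bind. In blood progenitors the balance of E and Id proteins is known to bear on the choice between lymphoid and myeloid fates.

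The E box is written CANNTG, where N is any base, and reads the same on both strands. It is in capitals below in the sequence before a start of Tcf3, Tcf12, Id2 and Sox4, shown because Sox4 is a target named later and the other genes carry such a box themselves. The sequences are from RefSeq on GRCm38.p6 and leave out bases of annotated exons. The Tcf3 stretch is chr10:80433648-80433885, that of Tcf12 chr9:72111872-72112069, that of Id2 chr12:25096254-25096342 and that of Sox4 chr13:28953714-28953949, all on the minus strand. The Id2 stretch lies inside the gene span of the deposited annotation.
Tcf3: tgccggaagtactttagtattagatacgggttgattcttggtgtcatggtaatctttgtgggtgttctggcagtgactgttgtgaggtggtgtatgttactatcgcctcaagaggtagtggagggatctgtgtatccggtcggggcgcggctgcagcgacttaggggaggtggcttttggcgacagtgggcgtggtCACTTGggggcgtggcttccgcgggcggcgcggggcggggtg
Tcf12: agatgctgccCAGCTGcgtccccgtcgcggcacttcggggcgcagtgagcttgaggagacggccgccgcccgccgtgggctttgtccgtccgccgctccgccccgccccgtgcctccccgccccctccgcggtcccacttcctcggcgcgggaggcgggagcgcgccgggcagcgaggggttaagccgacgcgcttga
Id2: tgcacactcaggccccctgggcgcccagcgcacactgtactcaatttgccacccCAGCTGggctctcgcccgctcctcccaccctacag
Sox4: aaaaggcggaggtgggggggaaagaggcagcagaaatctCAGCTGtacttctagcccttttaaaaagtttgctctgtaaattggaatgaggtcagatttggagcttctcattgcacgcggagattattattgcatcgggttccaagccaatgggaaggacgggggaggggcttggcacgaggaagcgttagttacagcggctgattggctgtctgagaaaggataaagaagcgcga
Each stretch held 1 box, CAGCTG in Tcf12, Id2 and Sox4 and CACTTG in Tcf3. Tcf3, Tcf12 and Id2 were chosen for carrying a box, so its presence there is no result. Over 32851 windows of the 250 bases before a gene start, 66.2% held CANNTG and 13% held CAGCTG. The stretches above are shorter than these windows, down to 89 bases in Id2. Another form, CAGGTG, which reads CACCTG on the opposite strand, was in 17.2% of the windows and in none of these 4. The windows of Id3 and Id4 held no CANNTG. Another Tcf12 window held CAAGTG and no CAGCTG, and a further Tcf12 window held no CANNTG. A match describes letters and not binding.

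Libraries held 18537700 to 22634286 reads assigned to genes. A count of 0 was given an approximate upper limit of 3 reads, which is not a hard bound and equalled 2.64 to 3.36 normalized counts. Normalized counts are reads over a size factor of the library. Lym mouse 87 lay close to the Lin- libraries in many genes below. Genes of the Y chromosome split the libraries without regard to group: Ddx3y stood at 2678, 0, 1855 across Lym versus 1989, 889.7, 2004 across Lin-, and Eif2s3y at 1133, 0, 0 across Lym versus 1136, 582, 1.03 across Lin-. Which mice share a donor is not known, and each was treated as independent. Kit, which defines the progenitor label, stood at 18902, 12027, 3158 across Lym versus 4953, 6066, 3420.2 across Lin-. Pax5, a transcription factor that defines the B lineage, was below 1 normalized count in every library. None of the erythroid markers passed the filter on low values.

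The 3 E protein genes were abundant in both groups and the Id genes scarce. Per kilobase of merged exons, which puts genes of different length on 1 scale, the normalized counts of Tcf3, Tcf4 and Tcf12 summed to 1651, 1401, 1457 across Lym versus 1285, 1114, 1185 across Lin-. Those of the 4 Id genes summed to 32.4, 93.3, 120.1 across Lym versus 79.9, 113, 132 across Lin-. The E protein sums did not overlap between groups, with Lym higher, while the Id sums overlapped. The ratio of the E protein sum to the Id sum was 50.9, 15.01, 12.1 across Lym versus 16.1, 9.9, 8.99 across Lin-. Lym mouse 62, the library made from 1 ng of RNA in place of 2 ng, had the highest ratio. These sums carry no test.

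**Figure D1:**
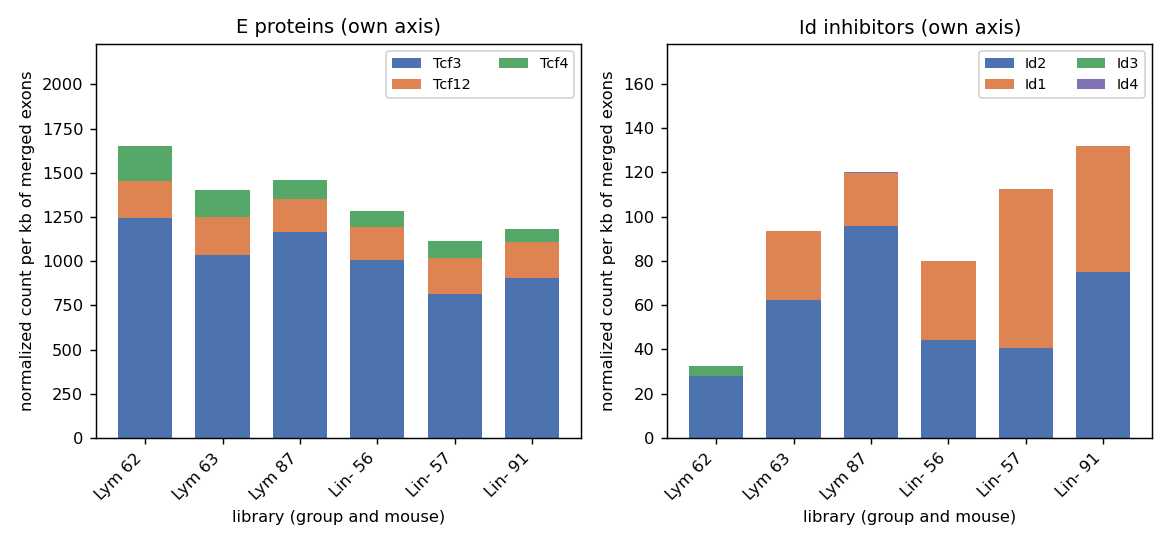
Stacked bars of normalized counts per kilobase of merged exons in each of the 6 libraries, E protein genes at left and Id genes at right, each panel with its own axis. Tcf3 fills most of every E protein bar, and the Id bar of Lym mouse 62 is the lowest at 32.4.

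In every library the order per kilobase of merged exons was Tcf3, then Tcf12, then Tcf4. Tcf3 alone made up 73.9% to 79.9% of the E protein level in Lym and 72.9% to 78.5% in Lin-. By the longest transcript these shares were 58.4% to 66.6% and 57.7% to 64.9%, and with no division by length 35.99% to 44.8% and 35.9% to 43.2%, so they rest on the length taken. Tcf12 stood at 205 ± 13.1 per kilobase in Lym and 197 ± 9.14 in Lin-, and Tcf4 at 149.7 ± 46.5 and 87.99 ± 9.65 (SD, n = 3 each). These neighbours overlapped in Lym but not in Lin-. Tcf4 has 62 annotated transcripts, with 27382 bases of merged exons against 8577 in the longest. By the longest transcript Tcf4 was above Tcf12 in Lym mouse 62 (627 against 514) and below it in the other 5 libraries. Among the Id genes Id2 (62.1 ± 33.8 in Lym, 53.2 ± 18.9 in Lin-) and Id1 (18.2 ± 16.2 in Lym, 54.9 ± 18.2 in Lin-) overlapped within each group, and Id3 and Id4 were at or near 0.

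**Figure D2:**
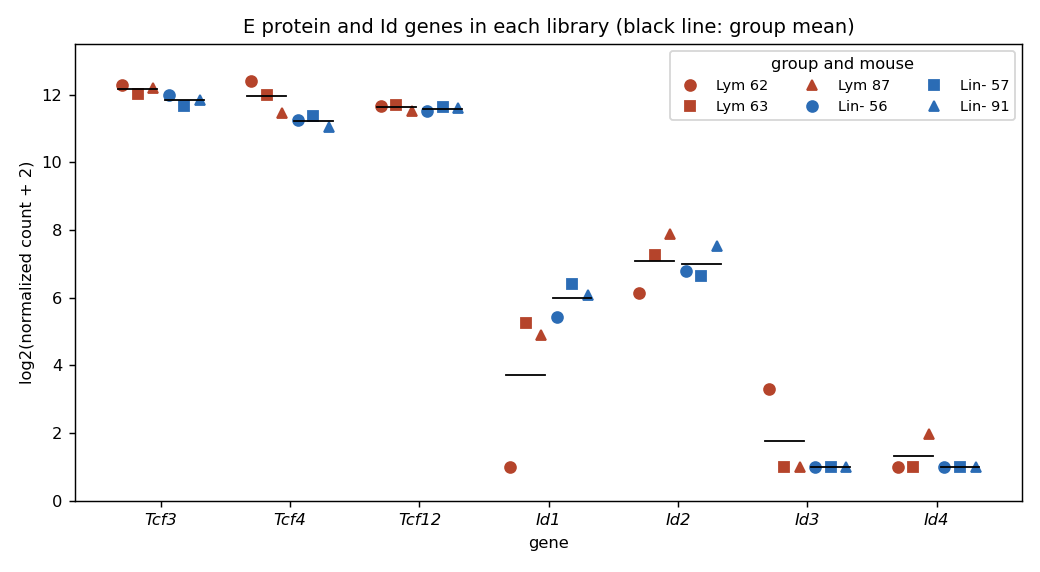
Points give log2(normalized count + 2) of each gene in each library, red for Lym and blue for Lin-, with 1 symbol per mouse and a black line at the group mean. Tcf3 and Tcf4 are higher in the 3 Lym libraries than in any Lin- library, Id1 is lower, and Id3 and Id4 lie at the bottom in most libraries.

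At a limma adjusted p of 0.05 no gene of this family was called, and 0% of the 14273 genes tested were. Tested were Tcf3, Tcf4, Tcf12, Id1 and Id2, the 5 of 7 that passed the filter on low values. Fold changes are differences of log2(normalized count + 2), Lym minus Lin-, given with standard errors, and p-values were adjusted by Benjamini-Hochberg over all genes tested. Unadjusted p under 0.05 was reached by 1459 genes, 10.2% (5.96% higher and 4.27% lower in Lym), among them Tcf3 and Tcf4. Over the same genes edgeR and limma-voom called 0. DESeq2 called 203, or 1.16% of the 17493 genes to which it gave an adjusted p, none of them of this family. Limma called 0.00701% of genes with a pseudocount of 8 or without Lin- mouse 91, and 0.0158% of 31604 genes without the filter. The authors' deposited table called 0.32% of the 31604 genes to which it gives an adjusted p. Groups did not overlap in Tcf3 and Tcf4, higher in Lym, nor in Id1, lower in Lym. Over all genes 15.6% stood apart in this way, 8.49% with Lym higher and 7.08% with Lym lower.

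Tcf4, the E protein that plasmacytoid dendritic cells depend on (ENSMUSG00000053477.17, chromosome 18, 69343356 to 69689079 in GRCm38), had normalized counts of 5378, 4091, 2831 across Lym versus 2449, 2652, 2128 across Lin-. All 3 Lym libraries lay above all 3 Lin- libraries, with mouse 87 close to them. Its log2 fold change was 0.72 ± 0.22, a 1.65-fold difference with a 95% interval of 1.17 to 2.33 (limma adjusted p = 0.423, unadjusted p = 0.00981). DESeq2 on recovered reads gave 0.77 with an adjusted p of 0.0513, and the authors' deposited table gave 0.67 with 0.117. Without Lym mouse 87 the log2 fold change was 0.97 (limma adjusted p = 0.00766). In that fit 9.57% of genes were called, 5.48% higher and 4.09% lower in Lym. With library weights, under which a library that deviates from its group counts less, it was 0.82 (limma adjusted p = 0.0306), where 4.62% were called. Without Lym mouse 62 it was 0.50 (limma adjusted p = 0.842). The CPM sums of 16 endothelial and stromal markers, 3 of them past the filter, were higher in every Lym library too. They were 649, 573, 369.5 across Lym versus 290.023, 344, 297 across Lin-, mostly from Pecam1. Of the 3 tested markers 2 were higher in Lym and 1, Flt1, was lower, with a log2 fold change of -1.31. Cdh5, which defines endothelial cells, was at most 4.48 normalized counts, and the part of such cells in the Tcf4 values was not tested.

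Tcf3, whose splice forms in B-cell development are not told apart at gene level (ENSMUSG00000020167.14, chromosome 10, 80409514 to 80433647), stood at 5033, 4183, 4700.3 across Lym versus 4073, 3279, 3667 across Lin-. Mouse 63, the lowest of Lym, lay just above mouse 56, the highest of Lin-, and mouse 87 was not the lowest Lym library here. The log2 fold change was 0.34 ± 0.13, or 1.26-fold with a 95% interval of 1.03 to 1.54 (limma adjusted p = 0.452, unadjusted p = 0.0268). DESeq2 on recovered reads gave 0.34 with an adjusted p of 0.477, and the authors' deposited table gave 0.31 with 0.964.

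Tcf12, the E protein known as HEB and best known from T-cell development (ENSMUSG00000032228.16, chromosome 9, 71842688 to 72111871), stood at 3237, 3347, 2952 across Lym versus 2911, 3191, 3092 across Lin-. The groups overlapped within a narrow range. Its log2 fold change was 0.05 ± 0.11 with a 95% interval of -0.20 to 0.30 (limma adjusted p = 0.879). Its span holds 7 short gene models on the same strand that were counted apart from it.

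Id1, an inhibitor switched on by bone morphogenetic protein signalling (ENSMUSG00000042745.9, chromosome 2, 152736251 to 152737410), stood at 0, 35.8, 27.6 across Lym versus 41.5, 83.6, 66.01 across Lin-. In reads these are 0, 32, 29 across Lym versus 47, 95, 64 across Lin-. The approximate upper limit for the 0 in Lym mouse 62 is 3.36 normalized counts. Every Lym library was below every Lin- library. The log2 fold change was -2.27 ± 1.03 with a 95% interval of -4.63 to 0.08 (limma adjusted p = 0.495), and its size rested on the library at 0. Without that library it was -0.92 (limma adjusted p = 0.842). The size also moved with the method. Limma gave -2.95 with a pseudocount of 0.5 and -1.58 with a pseudocount of 8. DESeq2 on recovered reads gave -1.59 with an adjusted p of 0.452, and the authors' deposited table gave -0.54 with 0.964. Markers of mature granulocytes and macrophages, 15 genes with C1qa at 0 throughout and 6 past the filter, summed to 280.4, 297, 270.2 across Lym versus 411, 324, 346 across Lin- in CPM, reads scaled to the library total. These sums too were lower in every Lym library, but 3 of the 6 tested genes were higher in Lym and 3 lower. The groups did not overlap in 1 with Lym higher, Cxcr2, and in 1 with Lym lower, Lyz2, against 8.49% and 7.08% of all genes. The part of such cells in the Id1 values was not tested.

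Id2, which natural killer and innate lymphoid cells need (ENSMUSG00000020644.9, chromosome 12, 25093799 to 25097140), stood at 68.4, 152, 233 across Lym versus 108, 98.6, 183 across Lin-. The groups overlapped, and both the lowest and the highest value were in Lym. Its log2 fold change was 0.11 ± 0.46 with a 95% interval of -0.94 to 1.16 (limma adjusted p = 0.945). Markers of T, natural killer and innate lymphoid cells, 18 genes of which 2 passed the filter and Gzma was at 0 throughout, summed in CPM to 54.4, 24.1, 8.16 across Lym versus 5.62, 7.95, 2.65 across Lin-. Zbtb16, at 833, 396, 113 across Lym versus 89.1, 141, 48.5 across Lin-, made up most of these sums. Lym mouse 62 had the most of these reads and the least Id2. In bulk RNA, fewer cells that use a gene and less RNA per cell cannot be told apart.

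Id3, an inhibitor induced by antigen receptor signalling (ENSMUSG00000007872.3, chromosome 4, 136143497 to 136145755), had 7 reads in Lym mouse 62 and 0 in the other 5 libraries. Id4 (ENSMUSG00000021379.2, chromosome 13, 48261228 to 48266026) had 2 reads in Lym mouse 87 and 0 elsewhere. A noncoding gene that overlaps Id4 on the opposite strand had the same 1.91 normalized counts there, and whether counting used the strand is not given in the sources used here. Both genes were below the filter and have no fold change in the main fit.

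**Figure D3:**
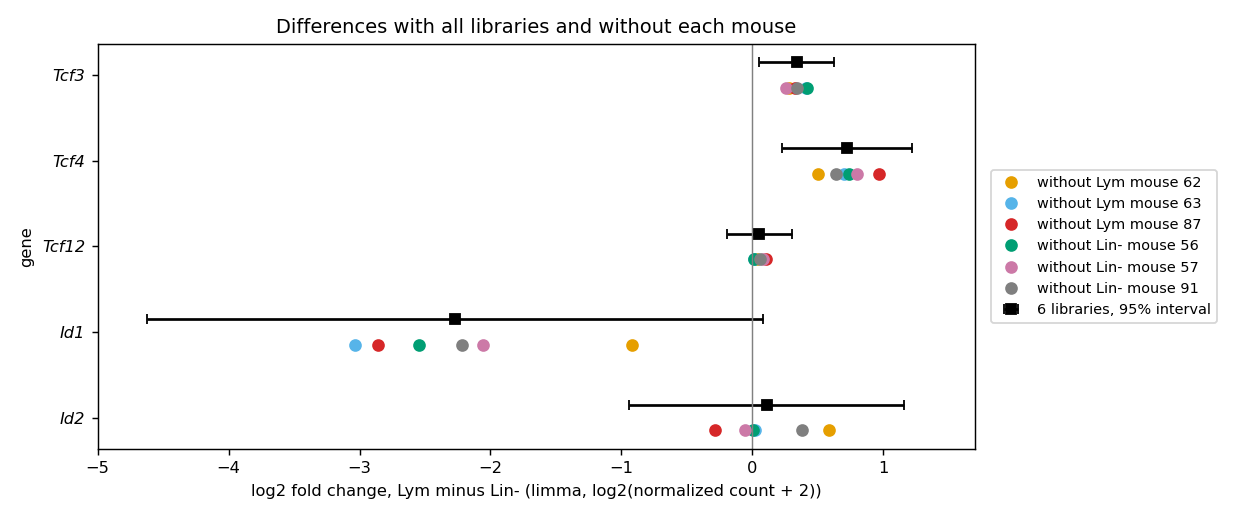
Black squares give the log2 fold change, Lym minus Lin-, of the 5 genes that passed the filter, with 95% intervals from limma over 6 libraries, and coloured points give it without each mouse. The intervals of Tcf3 and Tcf4 lie above 0 before adjustment, and the points of Id1 run from -3.04 to -0.92.

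The genes nearest in profile were sought among 9157 named genes with at least 100 normalized counts, by the root mean square difference of log2 values centred on each gene's mean. For Tcf4 they were Esr1, Arid4a and Kmt2a (0.042 to 0.056 against 0.46 for the spread of Tcf4 itself). Esr1, the oestrogen receptor, stood at 1774, 1305, 902 across Lym versus 837, 902, 718 across Lin-. For Tcf3 they were Epb41l4aos, Ubxn6 and Pds5b (0.057 to 0.065 against 0.21), for Tcf12 Myo1f, March7 and Kif13a (0.019 to 0.03 against 0.071), and for Id2 Ccdc180, Cmc2 and Clstn1 (0.23 to 0.24 against 0.58). For Id1 they were Lcn2, Clock and Mag (0.53 to 0.59 against 1.79), all low in Lym mouse 62. Clock, a circadian transcription factor, stood at 28.04, 308, 420.2 across Lym versus 486, 411, 531 across Lin-. These distances describe 6 libraries and carry no test.

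Genes that E proteins are known to activate in early B cells stood mostly higher in Lym. Of 32 such genes 14 passed the filter, 12 higher and 2 lower, with a median log2 fold change of 0.64 against -0.01 over all genes tested, where 48.7% were above 0. The groups did not overlap in 5 with Lym higher (8.49% of all genes tested) and in 1, Ikzf3, with Lym lower (7.08%), and limma called none. Without Lym mouse 87, the only mouse whose removal gave more than 1 called gene, it called 9, all higher in Lym. Over all genes 5.48% were called higher in that fit. Sox4, a progenitor transcription factor whose start sequence is shown above, stood at 10740.5, 7010.4, 4395 across Lym versus 3373, 4155, 2551 across Lin-, with an adjusted p of 0.0137 in the authors' deposited table. Rag2, a recombinase gene, stood at 361, 119.7, 27.6 across Lym versus 19.4, 38.7, 13.4 across Lin- and overlapped between groups, with an adjusted p of 0.0163 in the authors' deposited table. In both, mice 62 and 63 were the highest. Notch1, the receptor that starts the T lineage, stood at 5379, 6573, 4389 across Lym versus 3561, 3593, 3878 across Lin-, without overlap. Foxo1, a forkhead factor of early B cells, stood at 149, 153, 22.9 across Lym versus 29.1, 43.1, 31.97 across Lin-, so mouse 87 lay below every Lin- library. Cxcr4, a chemokine receptor, stood at 5147, 5468, 3368 across Lym versus 4841, 4038, 4339 across Lin-, overlapping. The early B markers, 13 genes of which 3 passed the filter and Vpreb3 was at 0 throughout, summed in CPM to 73.9, 14.2, 15.6 across Lym versus 22.1, 4.95, 14.96 across Lin-, and the groups overlapped. Cd79b, a part of the B-cell receptor, made up most of the sums of Lym mouse 87 and of Lin- mice 56 and 91. It was the 1 tested marker lower in Lym, at 255, 27.97, 244 across Lym versus 414, 45.8, 284 across Lin-. Without it, a choice made after the values were seen, the other 12 genes summed to 61.8, 12.8, 3.56 across Lym versus 1.16, 2.65, 1.2 across Lin-. These sums did not overlap and were highest in Lym mouse 62, but 3.56 in Lym mouse 87 was near 2.65 in Lin- mouse 57. With the choice made on the values, that separation carries no weight. Among the 12 genes Il7r, the interleukin 7 receptor gene, stood at 424, 82.8, 14.3 across Lym versus 2.65, 3.52, 4.13 across Lin-. Dntt, the polymerase that adds bases to rearranging receptor genes, stood at 216, 29.1, 4.76 across Lym versus 0, 0, 0 across Lin-. Markers of Lin-, Kit-positive progenitors also stood mostly higher in Lym, 11 of 13 tested, where 48.7% of all genes were above 0. Of the 13, 5 were apart with Lym higher and 1, Mpo, with Lym lower, against 8.49% and 7.08% of all genes. Sox4 is on that list as well, Gata2 stood at 6521, 2938, 1505 across Lym versus 1152, 974, 798 across Lin- and Flt3 at 19525, 22805, 11811 across Lym versus 11129, 9839.97, 11409.6 across Lin-. The part of such cells in the early B values was not tested.

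Among genes of plasmacytoid dendritic cells, a lineage that depends on Tcf4, 14 of 21 passed the filter, 9 higher and 5 lower in Lym, with a median log2 fold change of 0.22. The groups did not overlap in 1 with Lym higher, Runx2, and in 3 with Lym lower, Nucb2, Lair1 and Mpeg1, against 8.49% and 7.08% of all genes. Without Lym mouse 87 limma called 4 higher and 1 lower, against 5.48% and 4.09%. Runx2 stood at 3418, 2882.5, 1827 across Lym versus 1318, 1414, 1523 across Lin- and Nucb2 at 1069.9, 1349, 1725 across Lym versus 2542, 2323, 2227 across Lin-. Both were past an adjusted p of 0.05 in the authors' deposited table (0.0158 and 0.0466), Runx2 higher and Nucb2 lower in Lym. The inhibitory receptor gene Lair1 stood at 593, 1036, 516 across Lym versus 1171, 1044, 1199 across Lin-, and Mpeg1, a pore-forming protein gene of phagocytes, at 4221, 9143, 8291 across Lym versus 9341, 10058, 9861 across Lin-. The list thus had no common direction. Bcl11a, Siglech, Cox6a2 and Tlr7, chosen after their values were seen, were high in Lym mice 62 and 63 alone. Bcl11a, a zinc finger factor of lymphoid and dendritic cells, stood at 1751, 1025, 21.9 across Lym versus 9.7, 43.1, 0 across Lin-. Siglech, a surface lectin that defines these cells in the mouse, stood at 81.9, 54.8, 0 across Lym versus 0, 0, 0 across Lin-. The cytochrome oxidase subunit gene Cox6a2 stood at 419, 184, 16.2 across Lym versus 12.4, 10.6, 24.8 across Lin-, and the RNA sensor gene Tlr7 at 290.5, 308, 14.3 across Lym versus 31.8, 52.8, 42.3 across Lin-. Lym mouse 87 was near the Lin- libraries in these 4 genes. They were chosen with their values known, so any likeness to Tcf4 carries no weight. Irf8, a factor of dendritic cells and monocytes, did not follow them, at 10354, 15928, 10615 across Lym versus 10384, 12371, 10217 across Lin-. Bst2 and Irf7, on the same list, overlapped between groups as well. Bst2 stood at 331, 158, 280 across Lym versus 215, 239, 300 across Lin-. Irf7 stood at 21.3, 54.8, 41.9 across Lym versus 29.1, 43.1, 26.8 across Lin-. Spib did not exceed 10.6 normalized counts, and Klk1 was at 0 throughout. The part of plasmacytoid cells in the Tcf4 values was not tested.

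**Figure D4:**
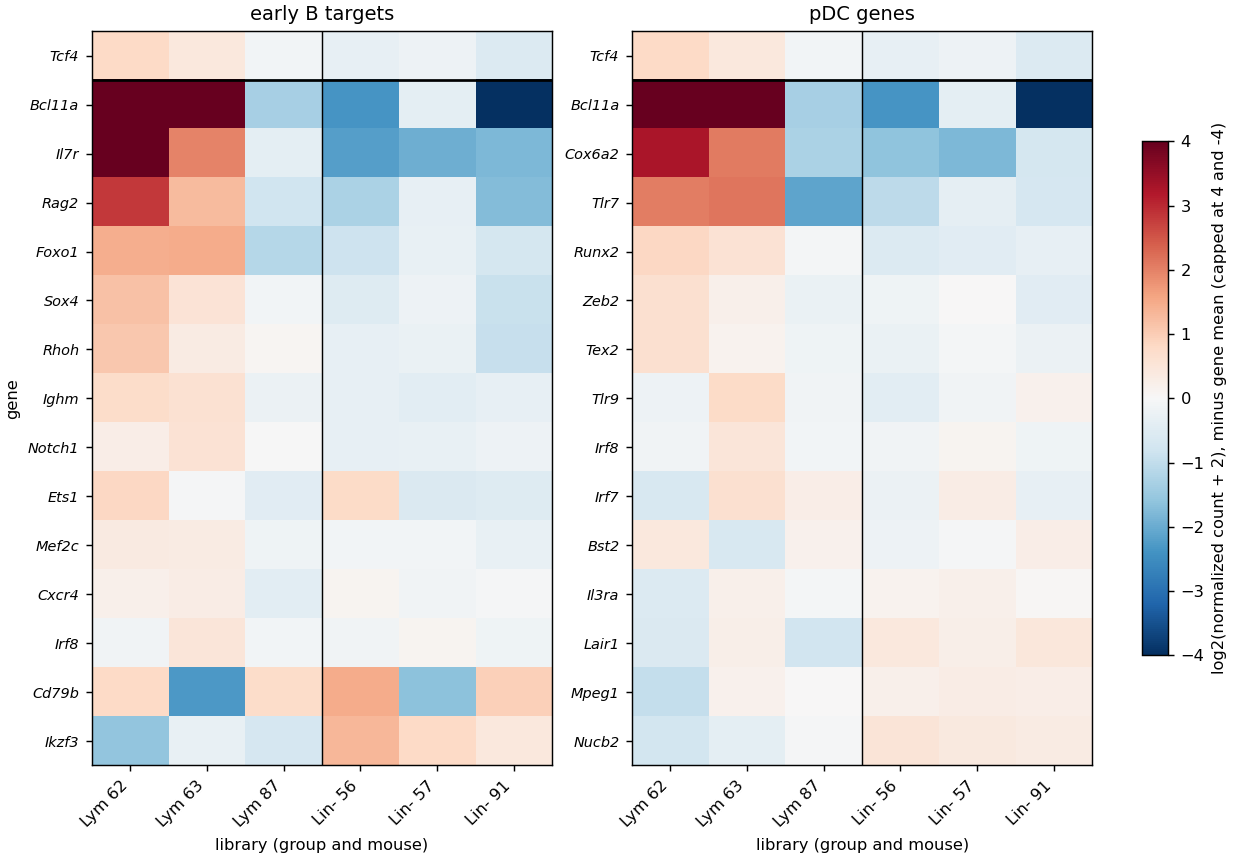
Colours give log2(normalized count + 2) minus each gene's mean over the 6 libraries, capped at 4 and -4, for early B targets at left and plasmacytoid dendritic cell genes at right that passed the filter on low values, and Tcf4 in the top row of both. Bcl11a, at 1751 and 1025 in Lym mice 62 and 63 and 21.9 in mouse 87, is among the rows with the strongest contrast.

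Of 23 coactivators and corepressors of E proteins 22 passed the filter, 17 higher and 5 lower in Lym, with a median log2 fold change of 0.18. The groups did not overlap in 7, all with Lym higher, against 8.49% of all genes, and without Lym mouse 87 limma called 7, all higher, against 5.48%. Cbfa2t3, a corepressor known as ETO2 that binds E proteins, stood at 5201, 4129, 2947 across Lym versus 2273, 2289.9, 2003 across Lin-. Its log2 fold change was 0.87 ± 0.20 (limma adjusted p = 0.42), with an adjusted p of 0.0117 in the authors' deposited table. The histone acetyltransferase genes whose products E proteins recruit were apart as well, Crebbp at 11369.7, 11785, 9299.5 across Lym versus 7199.6, 7329, 7209.6 across Lin- and Ep300 at 10306.5, 10423, 8142 across Lym versus 7414, 7542, 7279 across Lin-. Ncor1, a corepressor scaffold, stood at 20063.5, 18774, 15762 across Lym versus 15273.5, 14095, 14364 across Lin-. In these 4 genes mouse 87 was the lowest of Lym. Of 23 tissue-restricted partners only Lyl1 and Bhlha15 passed the filter, and limma called neither without Lym mouse 87. Lyl1, a blood partner related to Tal1, stood at 3362, 2691, 3294 across Lym versus 2461, 2787, 2908 across Lin-, and Bhlha15 at 654, 438, 372 across Lym versus 477, 504, 289.8 across Lin-, both overlapping. Tal1 itself did not exceed 7.85 in any library.

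Genes upstream of the Id genes stood mostly higher in Lym. The list was not split into activators and inhibitors of the Id genes, so its direction cannot be set against that of Id1. Of 29 genes of the bone morphogenetic protein, transforming growth factor beta and Egr routes 16 passed the filter, 15 higher and 1 lower, with a median log2 fold change of 0.41. The groups did not overlap in 3, all with Lym higher, where 15.6% of all genes were apart in either direction and 8.49% with Lym higher. Without Lym mouse 87 limma called 8, all higher in Lym, against 5.48% of all genes. Egr1, an immediate early factor, stood at 652, 493, 338 across Lym versus 174, 224, 299 across Lin-, and differed by 1.07 ± 0.29 on the log2 scale (limma adjusted p = 0.42). The cytokine gene Tgfb1 stood at 8704, 8538, 8816 across Lym versus 7153, 7323, 8286 across Lin-, and the ubiquitin ligase gene Smurf1 at 364, 426, 319 across Lym versus 284, 294, 313 across Lin-. Egr1, Tgfb1 and Smurf1 were the 3 without overlap. Smad1, which carries bone morphogenetic protein signals, stood at 932, 731, 0.953 across Lym versus 20.3, 242, 9.28 across Lin-, close to 0 in Lym mouse 87 and spread widely within both groups. The ligand genes Bmp2 and Bmp6 were at 0 in every library.

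Turnover and cell cycle genes linked to the family had no common direction. Of 14 tested turnover genes 4 were higher and 10 lower in Lym (median log2 fold change -0.09). The groups did not overlap in 2 with Lym higher and in 2 with Lym lower, against 8.49% and 7.08% of all genes. Without Lym mouse 87 limma called 0 of them, against 5.48% higher and 4.09% lower over all genes. The ubiquitin ligase gene Huwe1 stood at 22399.5, 21379, 22607 across Lym versus 19078, 17901, 20616 across Lin-, and Cdc27, of the anaphase promoting complex, at 3002, 2198, 2107 across Lym versus 2001, 2069.9, 1891 across Lin-. Both were higher in every Lym library. Cops5, of the COP9 signalosome, stood at 956, 809, 969.973 across Lym versus 1268, 1124, 989 across Lin- and the ligase subunit gene Rbx1 at 505, 492, 529.8 across Lym versus 665, 649, 565 across Lin-, both lower in every Lym library. Usp1, which removes ubiquitin from Id proteins, stood at 4866, 4407, 5923 across Lym versus 6560.01, 5313, 6140.1 across Lin-, overlapping. Of 14 tested cell cycle genes 7 were higher and 7 lower. The groups did not overlap in 3, all with Lym higher, against 8.49% of all genes. In the fit without Lym mouse 87 limma called 2 higher and 1 lower, against 5.48% and 4.09%. The cyclin gene Ccnd2 stood at 5213, 2498, 1476 across Lym versus 1337, 1251, 1323 across Lin-, the kinase gene Cdk6 at 46588, 38809.7, 29956 across Lym versus 25403, 29566.5, 29145 across Lin- and Rbl2 at 3619, 3491, 3152 across Lym versus 2959.8, 2733, 3023 across Lin-, none of which overlapped. Cdkn1a, an inhibitor of the cell cycle that E proteins activate, stood at 95.3, 109, 622 across Lym versus 383, 129, 413 across Lin-, highest in Lym mouse 87. Of 18 T-cell targets only Gfi1 and Socs1 passed the filter, and limma called neither without Lym mouse 87. Gfi1 stood at 1314, 1068, 1227 across Lym versus 1225, 1236, 1155 across Lin- and Socs1 at 54.95, 7.83, 16.2 across Lym versus 40.6, 29.9, 30.9 across Lin-, both overlapping.

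**Figure D5:**
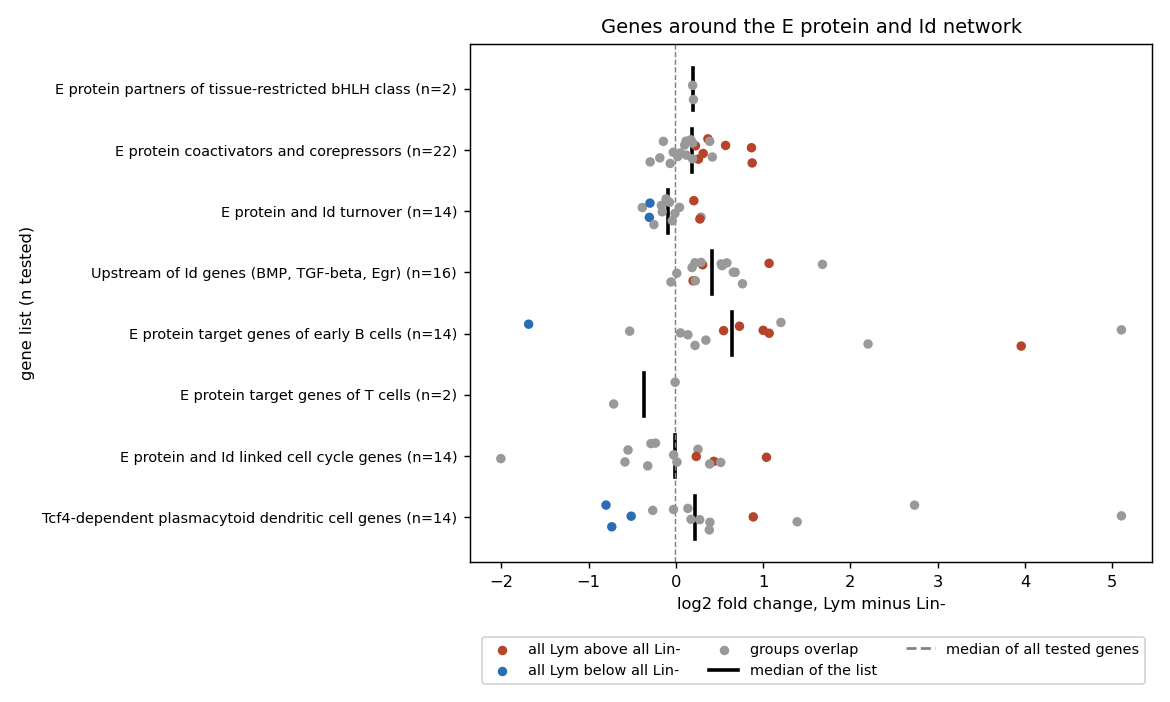
Each point is a gene that passed the filter, placed by its log2 fold change, Lym minus Lin-, in 8 gene lists. Black bars are list medians and the dashed line the median of all tested genes (-0.01), and red points are genes with all Lym values above all Lin- values, 7 of 22 among coactivators and corepressors.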

How the data were processed

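Total RNA was sequenced from 6 libraries amplified over 12 PCR cycles, per the labels' protocols. The submitters' processing notes name bcl2fastq, DESeq2, GRCm38.p6, featureCounts 1.6.4, Trim Galore 0.6.4 and STAR 2.6.1d. The annotation release, the DESeq2 version and the strand setting are not given in the sources used here. Deposited values are a normalized signal, which the authors made by scaling gene counts with size factors. Values up to 10000 were whole multiples of a library's step (tolerance 0.01), so whole reads were recovered. Per the file headers there are also a log2 fold change with its error, a test score, a p-value and its adjusted form, turned here to Lym minus Lin-.

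Limma 3.58.1 (R 4.3.3, with trend) was run on log2(normalized count + 2) for 14273 genes reaching 10 normalized counts in 3 libraries, with Benjamini-Hochberg adjustment. edgeR 4.0.16, DESeq2 1.42.0 and limma-voom used the recovered reads. The fits were tested on simulated data. GENCODE M21 matched 54349 of 55401 gene IDs. PCR copies cannot be recognised in these values, so limits from counts hold for counting error alone, and p-values measure the spread between mice.

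One marker gene is not reported here. The genes and lists were chosen with earlier results of these data known. Named from each list were genes past an adjusted p of 0.05 in limma or in the deposited comparison, otherwise up to 4 without overlap at 100 normalized counts or more, otherwise up to 2 of the most abundant. Notch1, Foxo1, Cxcr4, Ikzf3, Bcl11a, Siglech, Cox6a2, Tlr7, Irf8, Bst2, Irf7, Spib, Klk1, Lair1, Mpeg1, Crebbp, Ep300, Tal1, Smad1, Bmp2, Bmp6, Usp1, Cdkn1a and the marker and Y-linked genes were named after their values were seen.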

Additional observations from a re-analysis of the deposited data

How the results depend on the processing

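Limma called 0 genes, and 0 also with TMM or total read scaling, edgeR, limma-voom, a pseudocount of 0.5 and a filter of 50 normalized counts. The count was 1 with a pseudocount of 8 (0.00701% of genes), 5 without a filter, 203 with DESeq2 and 660 with library weights. Leaving out 1 mouse at a time gave 0 to 1366, the latter without Lym mouse 87. Tcf4 passed with library weights (0.82) and without Lym mouse 87. Leave-one-out log2 fold changes ran from 0.50 to 0.97 for Tcf4, 0.26 to 0.42 for Tcf3, 0.013 to 0.10 for Tcf12, -3.04 to -0.92 for Id1 and -0.28 to 0.59 for Id2. Id2 turned sign without Lym mouse 87 (-0.28) and without Lin- mouse 57 (-0.057), and the cause was not tested. Tcf3, Tcf12, Id1 and Id2 passed in no setting run. Id1 could not be fitted under the filter of 50. Id3 and Id4 were given a fold change only by limma without the filter, by DESeq2 and in the authors' deposited table. Limma without the filter gave adjusted p of 0.725 for Id3 and 0.743 for Id4, and DESeq2 gave them no adjusted p. Of 32 share values under other lengths 17 moved by more than 1 SD. Id3 and Id4 had at most 7 reads in a library, so a difference in them was not detectable at this depth. No paired analysis was possible because the mouse numbers do not repeat between groups.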

Other observations

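Id1 was 1 of 5 genes at 0 in Lym mouse 62 among 10919 genes with at least 25 normalized counts in each of the other 5 libraries. Another was the receptor gene Tlr1, at 193 to 433 in the other 5, and another the transcription factor gene Klf9, at 34.7 to 299. Lym mouse 63 had 6 such genes, of which Uty, Ddx3y and Kdm5d are Y-linked, Lin- mouse 56 had 2, and the other 3 libraries had 0. Igf1r, a growth factor receptor gene, stood at 29.2, 0, 371 across Lym versus 872, 48.4, 904 across Lin-. These genes were named after their values were seen.

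Pdgfrb, a receptor gene on the list of stromal markers, stood at 4174, 3658, 672 across Lym versus 663, 705, 459 across Lin-. Cdh5 and Col1a1, which define endothelial and stromal cells, did not exceed 4.48 and 7.83 normalized counts. Pecam1, which blood progenitors also carry, stood at 9417, 8165, 6682 across Lym versus 4973, 6034, 5551 across Lin-.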
